A study of Mus musculus with 6 samples.

Results

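The genes of the MYC, MAX and MXD network were followed in 6 YUMM3.3 melanoma tumors, 3 from vehicle-treated mice and 3 from mice treated with rigosertib (RGS). The network was taken as 10 genes, found by their symbols in a count table of 40166 genes: the activators *Myc*, *Mycn* and *Mycl*, the shared partners *Max* and *Mlx*, and the antagonists *Mxd1*, *Mxd3*, *Mxd4*, *Mxi1* and *Mnt*. All 10 had counts in at least 2 tumors, and 9 of them passed a filter on low counts, a median of 5 or more in either group, that kept 15355 genes. *Mycn* was the member that did not pass. The comparison asks whether the balance between activators and antagonists of the network differed between RGS-treated and vehicle-treated tumors.

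YUMM3.3 is a mouse melanoma cell line with mutant *Braf*, and every tumor was grown from this 1 line under the skin of C57BL/6 mice aged 8 to 10 weeks. Dosing began at a mean tumor volume of about 100 mm3 or at a set day after the cells were injected, and which of these held for the sequenced tumors is not given. RGS, a small molecule that mimics RAS and interferes with the binding of RAS to its effectors, was given by oral gavage at 300 mg/kg on 5 days a week, and vehicle mice received water (0 mg/kg). Tumors were taken after 17 days of treatment, and RNA of the whole tumor was sequenced. The study describes this material as including tumor, stromal and immune cells, but most markers of blood cells were near 0 in the counts. The counts summed to 32555494, 26652104 and 22793087 in vehicle replicates 7, 8 and 9, and to 21617368, 13837932 and 17768758 in RGS replicates 10, 11 and 12. The shallowest vehicle library was deeper than the deepest RGS library, and depth therefore cannot be told apart from treatment.

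MYC, MYCN and MYCL are transcription factors of the basic helix-loop-helix leucine zipper class that bind DNA only as a pair with MAX. MYC-MAX pairs bind E-boxes, short palindromic DNA motifs, and recruit coactivators that raise transcription of genes for ribosome production, metabolism and cell division. The MXD proteins, MXI1 and MNT also pair with MAX and bind E-boxes, but recruit the SIN3 corepressor with its histone deacetylases, so that the make-up of the MAX pairs sets how such genes are read. MLX is a second hub: it pairs with MNT, MXD1 and MXD4 and with the glucose-sensing factors MondoA and ChREBP. In melanoma, signaling from BRAF through ERK is known to stabilize MYC protein, which RNA counts do not measure.

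The tissue label was checked against defining markers. Of 9 melanocyte and melanoma markers, *Tyr*, *Dct* and *Mlana* had no count in any tumor, 2 passed the filter (*Mitf* and *Pmel*), and the summed level of the list was between 4.53 and 12.7 CPM (edgeR's cpm values on TMM-scaled libraries), most of it from *Mitf*. The defining markers of pigment cells were therefore at 0 or low in this table, and the tumors are called by their label only. *Cdkn2a*, a tumor suppressor gene known to be lost in this line and named after its values were seen, had 0 counts in all 6 tumors. *Kif11*, a motor gene that dividing cells use, was listed at 0 in all tumors too, so a 0 in this table may not mean absence. Most markers of blood cells were near 0, apart from *Trbc2* and *Cd68*. *Ptprc*, a general leukocyte marker outside the lists, had 0 counts in all 6 tumors. By flow cytometry, however, the study counted leukocytes, T cells among them, in YUMM3.3 tumors. *Cd3d*, *Cd3e*, *Cd3g*, *Cd2* and *Cd8a* had no count in any tumor, and the T cell list (8 genes, 35.2 to 55.6 CPM) came almost wholly from *Trbc2*, while *Trac* was at 0 with vehicle and at 1.08 CPM on average with RGS. The 4 NK cell markers summed to at most 0.0713 CPM with *Klrb1c* and *Gzmb* at 0, and the 4 B cell markers to at most 0.473 CPM with *Cd79b* and *Ms4a1* at 0. The 4 hemoglobin genes had no count in any tumor. Of the 8 macrophage markers, *Cd68* made up nearly all of the 58.9 to 88.2 CPM, while *Adgre1* and *C1qc* were at 0. The 4 neutrophil markers summed to between 0.114 and 0.673 CPM, with *Csf3r* at 0.

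Markers of further host cells also moved with treatment in part. The fibroblast and pericyte list (6 genes) summed to 555, 408 and 366 CPM in vehicle replicates 7, 8 and 9 and to 697, 641 and 726 CPM in RGS replicates 10, 11 and 12. Within it *Rgs5* and *Dcn* were higher with RGS, *Col1a2* and *Pdgfra* were lower, and *Lum* was at 0 throughout. The higher sums with RGS came from *Rgs5*, which averaged 1.30 CPM with vehicle and 401 CPM with RGS, whereas *Col1a2* averaged 244 and 147 CPM and *Pdgfra* 179 and 110 CPM. The keratinocyte list (5 genes, led by *Ivl*, which had no count with vehicle) was between 0.3996 and 1.72 CPM with vehicle and between 6.77 and 22.8 CPM with RGS. Its keratin genes *Krt5* and *Krt14* did not rise, averaging 0.0287 and 0.0119 CPM with vehicle and 0 with RGS. The endothelial list (5 genes, with *Emcn* at 0) was at most 1.20 CPM with vehicle and between 3.24 and 11.2 CPM with RGS. It was led by *Cdh5*, the 1 gene of this list past the threshold, which averaged 0.555 and 6.20 CPM. *Pecam1* averaged 0.204 CPM with vehicle and 0.768 CPM with RGS, whereas *Kdr* (0.0713 and 0.0612 CPM) and *Tek* (0.217 and 0.0520 CPM) did not rise. The dendritic cell list (5 genes, led by *Flt3*, with *Itgax* and *Siglech* at 0) was at most 0.685 CPM with vehicle and between 6.77 and 10.8 CPM with RGS. The adipocyte list (4 genes, led by *Fabp4*, with *Plin1* and *Lep* at 0) was between 6.30 and 14.8 CPM over all tumors. The skeletal muscle list (4 genes, led by *Ttn*, with *Ckm* and *Myh4* at 0) was between 2.75 and 3.28 CPM with vehicle and between 1.81 and 2.08 CPM with RGS. It was thus lower with RGS without overlap, but *Ttn*, its only tested gene, did not pass the threshold. The share of counts from mitochondrial genes was 2.13%, 2.23% and 3.20% in the vehicle tumors and 5.60%, 7.25% and 8.22% in the RGS tumors. The part of these shifts in the results for the network was not tested. *Trac*, *Ivl* and *Flt3* passed the filter on low counts only through the RGS tumors, so no test of them is given. In whole tumors, fewer cells of a type and less RNA per cell cannot be told apart.

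RGS-treated tumors had less *Myc*, *Mlx* and *Mxd3* RNA and more *Mxd4* and *Mxi1* RNA than vehicle-treated tumors. *Max*, *Mnt*, *Mxd1* and *Mycl* did not pass the test. The activators were represented almost entirely by *Myc*, whose mean level went from 118 to 53.2 CPM per kb of gene length. The summed level per kb of the 5 antagonists overlapped between the groups, with *Mxd3* lower and *Mxd4* and *Mxi1* higher. Without division by length, the antagonist sums were higher in every RGS tumor than in every vehicle tumor. In the quasi-likelihood test of edgeR, adjusted over all 15355 genes by Benjamini-Hochberg with a threshold of 0.05, 3 of the 9 tested members were lower and 2 were higher. Over all tested genes, 16.5% were lower (2533 genes) and 16.3% were higher (2503 genes). Scaling by library size only shifted this split to 3152 lower and 1870 higher genes. The values of 5 of the 9 members did not overlap between the groups, a share near the 45.8% of all tested genes for which this was the case. Since the exact two-sided permutation p of 1 value is never smaller than 0.1 with 3 tumors a group, p-values were taken from the model across genes.

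Among the activators, *Myc* (ENSMUSG00000022346.15, chromosome 15 from 61985391 to 61990374 in GRCm38) had 12076, 8705 and 7218 counts in vehicle replicates 7, 8 and 9, or 345, 310.2 and 310.3 CPM. It had 2684, 2005 and 2544 counts in RGS replicates 10, 11 and 12, or 127, 151 and 156 CPM. The highest RGS tumor was far below the lowest vehicle tumor, and the tumors within a group lay close together. The means were 322 ± 19.9 CPM and 145 ± 15.3 CPM (SD, n = 3 each), a log2 fold change of -1.15 (standard error 0.15, adjusted p = 1.27e-05 by edgeR). As read from a heat map of the study, *Myc* is among the genes it picked from these tumors for lower expression, so this call is not independent evidence of its direction.

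*Mycl*, which encodes the L-MYC paralog, was at 20.1, 20.6 and 11.6 CPM with vehicle and 20.9, 16.3 and 8.69 CPM with RGS. Both groups spread over about the same range, and the difference was smaller than the SDs of 5.09 and 6.18 CPM (n = 3 each; log2 fold change -0.19, standard error 0.31, edgeR adjusted p = 0.688). *Mycn*, the paralog best known from neural crest tumors, was counted 0, 12 and 3 times with vehicle and 0 times in each RGS tumor. A floor of 3 counts per library corresponds to between 0.0856 and 0.226 CPM, which covers counting error only, and 1 vehicle tumor was above it. No fold is given for *Mycn*. *Myc* made up between 95.6% and 97.5% of the summed activator level per length in vehicle tumors and between 90.0% and 96.4% in RGS tumors.

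**Figure D1:**
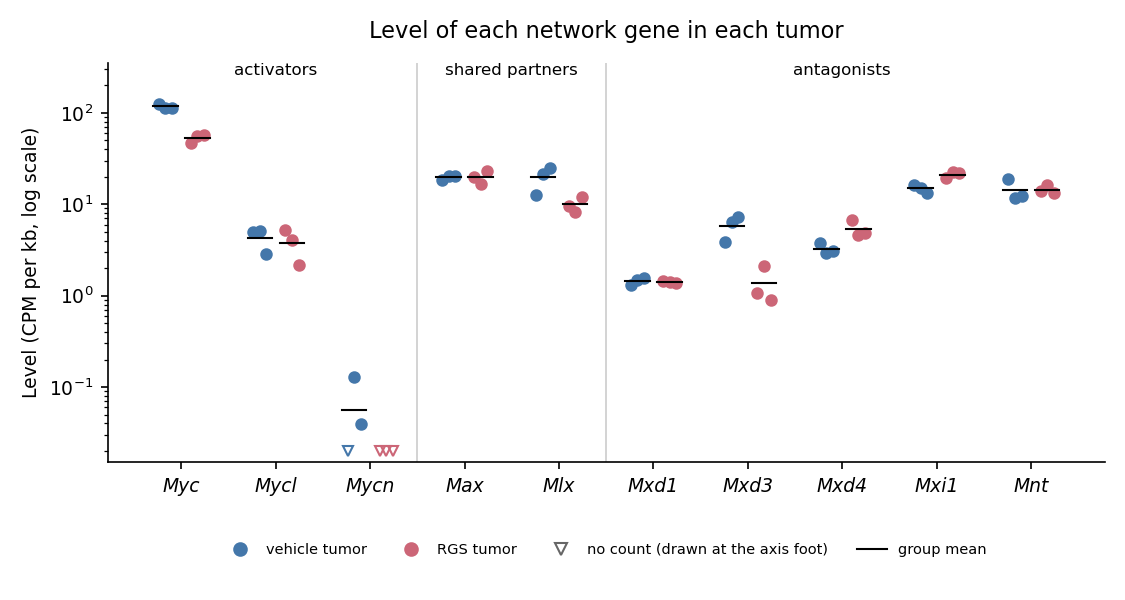
Level of each of the 10 network genes in each tumor, as CPM per kb of gene length on a log axis, with vehicle tumors in blue, RGS tumors in red and the group mean as a line. *Myc* lies above all other members in every tumor, and its 3 RGS values (46.8, 55.6 and 57.3) lie below its 3 vehicle values (127, 114 and 114), while the *Max* values of the groups overlap.

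*Max*, the obligate partner of both arms, was measured at 66.3, 73.8 and 73.1 CPM with vehicle and 71.4, 59.3 and 82.5 CPM with RGS. The RGS tumors spread to both sides of the vehicle tumors, and the means were 71.1 ± 4.11 and 71.1 ± 11.6 CPM (SD over n = 3 tumors a group; log2 fold change 0.00, standard error 0.17, edgeR adjusted p = 0.996). The sign of this value differs between scalings, at 0.01 with RLE factors and -0.14 with library size only. *Max* overlaps the uncharacterized transcript *Gm47218* on the same strand, which had 0 to 24 counts per tumor and shares no exon base with it.

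*Mlx*, the hub of the second arm, had 25.5, 43.4 and 49.96 CPM in vehicle replicates 7, 8 and 9 and 19.1, 16.6 and 24.3 CPM in RGS replicates 10, 11 and 12. The groups did not overlap, but vehicle replicate 7 lay only just above RGS replicate 12. The means were 39.6 ± 12.7 and 20.0 ± 3.90 CPM (SD, n = 3 each), a log2 fold change of -0.98 (standard error 0.25, edgeR adjusted p = 0.00499). *Mlx* shares 385 exon bases with *Psmc3ip* on the opposite strand, which had 21 to 255 counts per tumor against 221 to 1219 for *Mlx* and was lower too (log2 fold change -1.28, standard error 0.45, edgeR adjusted p = 0.0368). The strand setting of the counting is not given in the sources used here, so reads of the pair cannot be told apart in the shared stretch.

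Of the antagonists, *Mxd3* had the largest change. MXD3 is unusual in its family, since it is made in dividing cells during S phase rather than on differentiation. Its values were 9.08, 15.2 and 17.2 CPM with vehicle and 2.56, 4.97 and 2.14 CPM with RGS. All RGS tumors were low and apart from the vehicle tumors, and the means were 13.8 ± 4.23 and 3.22 ± 1.53 CPM (SD over n = 3 tumors a group; log2 fold change -2.11, standard error 0.40, edgeR adjusted p = 4.94e-04). The end of *Mxd3* shares 105 exon bases with *Prelid1* on the opposite strand, where reads of the 2 genes cannot be told apart either. *Prelid1* had 4442 to 7272 counts per tumor against 35 to 427 for *Mxd3*, and it was higher with RGS (log2 fold change 0.76, standard error 0.15, edgeR adjusted p = 5.90e-04).

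*Mxd4*, a family member linked to differentiation and exit from the cell cycle, was at 31.7, 25.02 and 25.8 CPM with vehicle and 56.8, 39.4 and 41.0 CPM with RGS. Each RGS tumor was above each vehicle tumor, with RGS replicate 10 the highest. The means were 27.5 ± 3.62 and 45.7 ± 9.60 CPM (SD, n = 3 each), a log2 fold change of 0.73 (standard error 0.20, edgeR adjusted p = 0.00968). Without RGS replicate 10 the log2 fold change was 0.55 and did not pass the threshold (edgeR adjusted p = 0.0698).

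*Mxi1* had the highest mean level per length among the antagonists in both groups, but overlapped *Mnt* with vehicle. Its values were 92.1, 85.5 and 74.9 CPM with vehicle and 109, 126 and 122 CPM with RGS. The groups were apart, with means of 84.2 ± 8.71 and 119 ± 8.89 CPM (SD over n = 3 tumors a group; log2 fold change 0.50, standard error 0.16, edgeR adjusted p = 0.0214). This call passed without vehicle replicate 7 or RGS replicate 10 but was lost without vehicle replicate 8 or 9 or RGS replicate 11 or 12 (log2 fold change 0.53, 0.42, 0.45 and 0.45, edgeR adjusted p = 0.0667, 0.0944, 0.1002 and 0.0776). It was also lost when libraries were scaled by their size only (log2 fold change 0.35, edgeR adjusted p = 0.113), where the median of all genes moved from -0.05 to -0.19. Relative to that median, the log2 change of *Mxi1* was 0.55 with TMM factors and 0.54 with library size only.

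*Mxd1*, the founding antagonist, was between 9.19 and 11.01 CPM with vehicle and between 9.67 and 10.3 CPM with RGS, the narrowest spread of the members in proportion to its RGS mean (log2 fold change -0.04, standard error 0.30, edgeR adjusted p = 0.931). It overlaps the uncharacterized transcript *Gm44292* on the same strand, with 0 to 46 counts per tumor and no shared exon base. *Mnt*, the antagonist found in most tissues, was at 87.9, 54.1 and 57.6 CPM with vehicle and 64.3, 75.2 and 61.6 CPM with RGS. Vehicle replicate 7 was the highest and the other vehicle tumors the lowest of the 6, so the groups overlapped (log2 fold change 0.01, standard error 0.19, edgeR adjusted p = 0.975). The sign of both values differed between alternative settings.

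**Figure D2:**
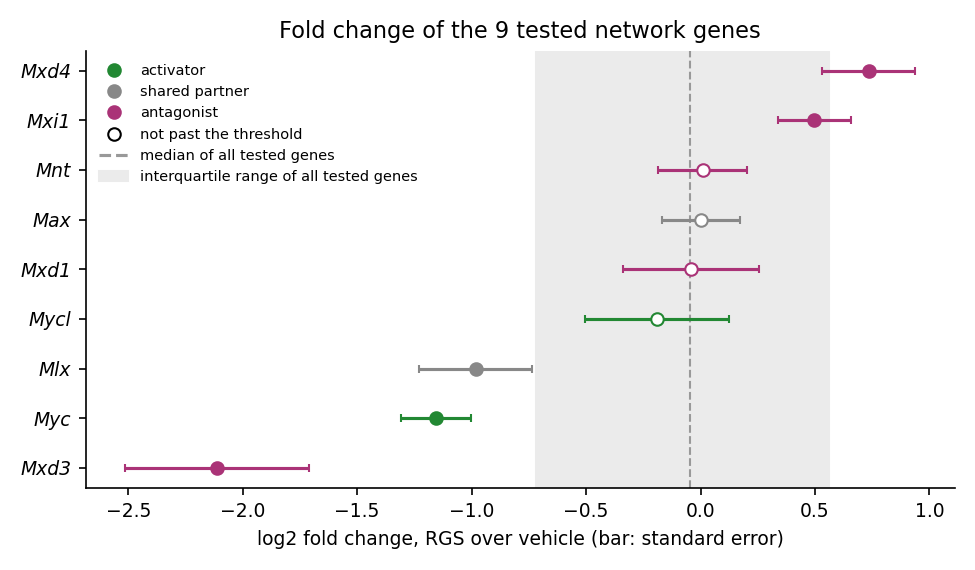
Log2 fold change (RGS over vehicle) of the 9 tested network genes with its standard error as a bar, colored by role. Open circles did not pass the threshold, the dashed line is the median of all tested genes (-0.05) and the grey band their interquartile range (-0.72 to 0.56). *Mxd3* (-2.11), *Myc* (-1.15) and *Mlx* (-0.98) lie left of the band and *Mxd4* (0.73) right of it, while *Mxi1* (0.50) lies inside it.

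Levels can be compared between genes only per length, here as CPM per kb. In vehicle tumors *Myc* stood first at 118 ± 7.32 CPM per kb, followed by *Mlx* (19.8 ± 6.34), *Max* (19.8 ± 1.14), *Mxi1* (15.0 ± 1.55) and *Mnt* (14.4 ± 4.02; SD, n = 3 each). The range of *Mlx*, from 12.8 to 24.99, held all values of *Max*, *Mxi1* did not reach *Max*, and *Mxi1* and *Mnt* overlapped. Below them were *Mxd3* (5.84 ± 1.79), *Mycl* (4.32 ± 1.26) and *Mxd4* (3.24 ± 0.427), whose neighbors in the order overlapped, then *Mxd1* (1.45 ± 0.135) and *Mycn* (0.0563 ± 0.0666).

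In RGS tumors *Myc* was still first at 53.2 ± 5.65 CPM per kb, now followed by *Mxi1* (21.1 ± 1.58), *Max* (19.8 ± 3.23), *Mnt* (14.5 ± 1.56), *Mlx* (10.02 ± 1.95) and *Mxd4* (5.39 ± 1.13; SD, n = 3 each). *Mxi1* and *Max* overlapped, as did *Mxd4* and *Mycl* (3.79 ± 1.53). *Mxd3* (1.36 ± 0.645) overlapped *Mxd1* (1.41 ± 0.0464) at the lower end of the order. *Myc* held 58.5 ± 2.33% of the summed level of the 10 members with vehicle and 40.7 ± 2.55% with RGS, while the share of *Mxi1* was 7.40 ± 0.656% and 16.2 ± 0.741% (SD, n = 3 each).

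The summed activator level was 132, 119 and 117 CPM per kb in vehicle replicates 7, 8 and 9 and 52.0, 59.6 and 59.4 CPM per kb in RGS replicates 10, 11 and 12. The summed antagonist level was 44.3, 37.8 and 37.6 CPM per kb with vehicle and 42.5, 46.7 and 42.2 CPM per kb with RGS. Per kb, the activator levels of the groups were far apart, whereas the antagonist levels overlapped. Without division by length the antagonists did not overlap, at 230, 190 and 186 CPM with vehicle and 243, 255 and 237 CPM with RGS. The ratio of activators to antagonists was 2.98, 3.16 and 3.11 in the vehicle tumors and 1.22, 1.28 and 1.41 in the RGS tumors. All RGS tumors had a lower ratio than all vehicle tumors, yet per kb activator RNA still exceeded antagonist RNA in each of them. This order turned without division by length, where activators summed to 148, 167 and 164 CPM in the RGS tumors, below the antagonist sums. The log2 ratio was 1.62 ± 0.0443 with vehicle and 0.38 ± 0.105 with RGS (SD, n = 3 each), a difference of -1.25. As a score over chosen members it carries no test, and since *Myc* supplies nearly all of the activator level it moves with that 1 gene.

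*Max* gave a common yardstick for both arms. The ratio of *Myc* to *Max* was 6.88, 5.57 and 5.62 with vehicle and 2.36, 3.37 and 2.497 with RGS, without overlap. The ratio of the summed antagonists to *Max* was 2.40, 1.84 and 1.85 with vehicle and 2.14, 2.84 and 1.84 with RGS, which overlapped. In every tumor *Myc* RNA was more abundant per length than *Max* RNA.

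**Figure D3:**
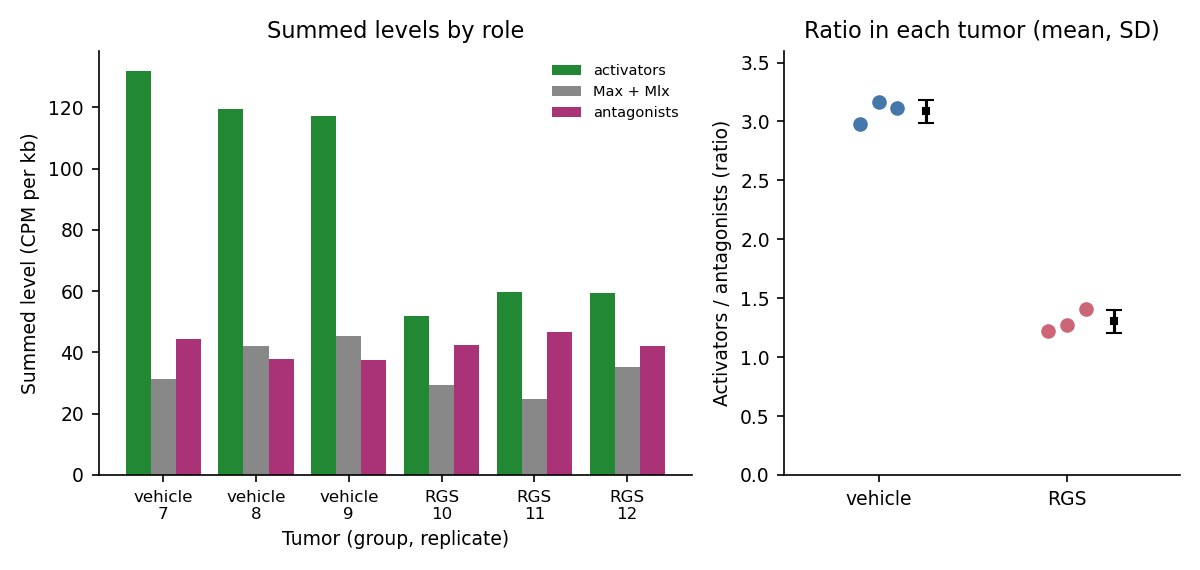
Left, summed level (CPM per kb) of the activators, of *Max* with *Mlx*, and of the antagonists in each tumor. Right, the ratio of activators to antagonists in each tumor with the group mean and SD (square and bars, n = 3). The activator bars are between 117 and 132 with vehicle and between 52.0 and 59.6 with RGS, and the ratio lies between 2.98 and 3.16 with vehicle and between 1.22 and 1.41 with RGS.

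The network genes are themselves candidates for E-box binding, so their promoters are shown where the motif occurs. Promoter sequences (250 bases before to 50 after the gene start) came from RefSeq for GRCm38.p6. Of the 10 members 9 matched, all but *Myc*. The E-box CACGTG, which reads the same on both strands, was found in the promoters of 4 of these 9 genes (*Max*, *Mlx*, *Mxd4* and *Mnt*), and in 8.09% of all 27025 genes of the promoter table. The 4 stretches below run 5′ to 3′ along the gene's strand, end no later than the gene start or the motif, and carry the E-box in capitals. They lie upstream of the RefSeq start at chr12:76962246-76962278 (*Max*, minus strand, the motif spanning the start), chr11:101087223-101087282 (*Mlx*, plus strand), chr5:34187897-34187956 (*Mxd4*, minus strand) and chr11:74830774-74830833 (*Mnt*, plus strand).
Max: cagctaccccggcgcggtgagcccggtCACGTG
Mlx: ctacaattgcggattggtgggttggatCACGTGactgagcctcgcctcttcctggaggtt
Mxd4: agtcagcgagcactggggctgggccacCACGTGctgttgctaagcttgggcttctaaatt
Mnt: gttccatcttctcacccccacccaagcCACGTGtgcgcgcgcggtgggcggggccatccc
Of these 4 genes *Mlx* fell, *Mxd4* rose, and *Max* and *Mnt* did not pass the test. The promoters of *Mxd3* and *Mxi1* (3 entries), which fell and rose, do not hold these letters. A match is a description of the sequence and not a binding site.

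Other genes tied to the network were read from a list of 5. *Pvt1*, a long noncoding RNA gene that starts 47611 bases beyond the end of *Myc* on the same strand, was at 102, 144 and 158 CPM with vehicle and 38.3, 32.7 and 39.5 CPM with RGS. It fell without overlap of the groups, from 135 ± 29.1 to 36.9 ± 3.65 CPM (SD over n = 3 tumors a group; log2 fold change -1.87, standard error 0.19, edgeR adjusted p = 5.07e-07). *Pvt1* overlaps *Gm27782*, with 0 to 12 counts per tumor and no shared exon base, and shares 109 exon bases with the pseudogene *H2afy3*, which had no count. *Mga*, a large repressor that pairs with MAX, was between 40.3 and 52.8 CPM with vehicle and between 33.0 and 37.2 CPM with RGS. Its groups did not overlap, but the difference did not pass the threshold (log2 fold change -0.36, edgeR adjusted p = 0.151), except with an offset for gene length (edgeR adjusted p = 0.0435). *Mlxip*, which encodes MondoA, averaged 24.6 CPM with vehicle against 29.8 CPM with RGS (edgeR adjusted p = 0.411). *Zbtb17*, which encodes the MYC-binding transcription factor MIZ1, averaged 41.3 and 41.4 CPM (edgeR adjusted p = 0.997). *Mlxipl*, which encodes ChREBP, had 0 to 17 counts and was not tested.

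Targets of the MLX arm contained the largest fold change that could be estimated in the network and its pathway lists. *Txnip*, an inhibitor of glucose uptake and a textbook target of MondoA-MLX, was at 722, 834 and 829 CPM with vehicle and 45.1, 56.6 and 50.6 CPM with RGS. It fell in every RGS tumor to a narrow low range (795 ± 63.2 to 50.8 ± 5.73 CPM, SD over n = 3 tumors a group; log2 fold change -3.97, standard error 0.17, edgeR adjusted p = 5.89e-12). It shares 606 exon bases with *Gm15441* on the opposite strand, which had 0 to 35 counts per tumor. *Arrdc4*, its relative and another such target, had 13, 10 and 30 counts with vehicle and 0 in each RGS tumor. Against a floor of 3 counts per library, averaged over the RGS tumors, it was at least 3.66-fold lower. This bound leans on vehicle replicate 9 and was 1.98-fold without it, an alternative chosen after the data had been seen. *Arrdc4* passed the filter on low counts only through the vehicle tumors, where it is high, so its call is no support, nor are the list's count of 2 lower genes, which includes it, and the list's median. It is named here after its values were seen, as its level was below that asked for by the naming rule. *Acaca*, *Acly* and *Fasn*, enzymes of fatty acid synthesis, did not pass the threshold, and *Pklr* had no count in any tumor. *Txnip* passed in all 16 alternative fits.

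The promoters of *Txnip* and *Arrdc4* are shown because MondoA-MLX and ChREBP-MLX are known to bind paired E-box-like sites. The pattern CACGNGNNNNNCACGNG, searched on both strands after the values of *Txnip* had been seen, occurs in 16 of the 32851 promoters (0.0487%). The *Txnip* promoter holds it, shown in capitals, within chr3:96557845-96557915 on the plus strand, 85 bases before the start. The *Arrdc4* promoter does not hold that pattern but has a single CACGTG, in capitals, within chr7:68749399-68749458 on the minus strand, 193 bases before the start.
Txnip: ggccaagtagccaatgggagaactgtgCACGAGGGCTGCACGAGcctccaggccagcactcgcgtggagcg
Arrdc4: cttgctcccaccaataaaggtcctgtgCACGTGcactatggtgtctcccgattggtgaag

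Of 66 genes that MYC is known to activate 65 were tested, and 18 were lower and 4 higher, with a median log2 fold change of -0.16. This count and those of the lists below stand beside 16.5% lower and 16.3% higher over all tested genes. *Gnl3*, which encodes the nucleolar protein nucleostemin, fell from 210.0 ± 43.6 to 78.5 ± 9.17 CPM (SD over n = 3 tumors a group; log2 fold change -1.42, edgeR adjusted p = 6.66e-06). *Tfap4*, a transcription factor gene, *Slc19a1*, a folate carrier gene, and *Hspe1*, a mitochondrial chaperonin gene, fell as well, with log2 fold changes of -1.82, -1.54 and -1.37. The classical target *Odc1*, which encodes the first enzyme of polyamine synthesis, rose instead, from 560.3 ± 75.6 to 956 ± 57.2 CPM (SD over n = 3 tumors a group; log2 fold change 0.77, edgeR adjusted p = 7.20e-04). *Noc4l*, *Ipo4* and *Farsa* also rose, by 0.78, 0.71 and 0.58 on the log2 scale. *Ncl*, *Cad*, *Ldha* and *Cdk4*, further much-used targets named after their values were seen, did not pass the threshold, at log2 fold changes of -0.18, 0.24, 0.23 and -0.40. Named in the same way, *Npm1*, *Tfrc* and *Shmt2* were among the 18 lower genes, at -0.73, -0.93 and -0.81. The number of higher genes fell to 2 without vehicle replicate 9 and without RGS replicate 12, where *Noc4l* and *Farsa* did not pass (edgeR adjusted p between 0.0544 and 0.153). Their log2 fold changes in these 2 fits were 0.60 and 0.62 (*Noc4l*) and 0.53 and 0.39 (*Farsa*). *Farsa* was also lost without vehicle replicate 8 and with library size only (log2 fold change 0.56 and 0.43). Of the 66 genes 55 had a promoter entry, and 19 of these (34.5%) held CACGTG, against 8.09% of all 27025 genes of the promoter table. Among the 8 genes named by rule here, *Ipo4* was the only one with the motif, and *Tfap4* had no entry.

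Genes that MYC is known to repress moved in both directions. All 20 were tested, 7 were lower and 4 higher, and the median log2 fold change was -0.31. *Clu*, a secreted chaperone gene, rose from 101 ± 10.5 to 617 ± 69.8 CPM (SD over n = 3 tumors a group; log2 fold change 2.60, edgeR adjusted p = 1.21e-09), and *Gas1*, *Thbs1* and *Btg1* rose by 0.82, 0.63 and 0.42 on the log2 scale. *Cdkn1b*, the gene of the cell cycle inhibitor p27, fell from 149.6 ± 38.4 to 50.5 ± 6.60 CPM (SD over n = 3 tumors a group; log2 fold change -1.57, edgeR adjusted p = 5.67e-06). The growth arrest genes *Gadd45a* and *Gadd45b* fell with log2 fold changes of -1.56 and -2.07, and *Pdgfrb*, a receptor gene, with -2.20. Both *Gadd45* genes are in the heat map of picked genes named above for *Myc*, so their calls are not independent evidence either. *Cdkn1a*, named after its values were seen, did not pass the threshold (log2 fold change 0.12). The call of *Btg1* was lost with library size only, without a filter, and on leaving out vehicle replicate 8 or 9 or any 1 RGS tumor (edgeR adjusted p between 0.0553 and 0.174), and that of *Thbs1* with library size only and without RGS replicate 10 (0.0502 and 0.0535). In these fits the log2 fold change of *Btg1* was 0.28 with library size only and otherwise between 0.36 and 0.50, and that of *Thbs1* was 0.48 and 0.56.

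The partners that the 2 arms recruit were measured next. Of 20 coactivator genes 6 were higher and 0 lower, with a median log2 fold change of 0.22. Among the higher genes were *Crebbp*, *Smarca4* and *Supt5*, with log2 fold changes of 0.90, 0.80 and 0.76. Without vehicle replicate 8 the number of higher genes was 3, and *Crebbp* was lost there and without RGS replicate 11 (log2 fold change 0.77 and 0.70, edgeR adjusted p = 0.0635 and 0.0828). Of 19 corepressor genes 5 were higher and 2 lower, with a median of 0.10, and with library size only 5 were lower. *Sin3b*, the scaffold that MXD proteins bind, rose from 130.1 ± 11.5 to 339.9 ± 45.5 CPM (SD over n = 3 tumors a group; log2 fold change 1.39, edgeR adjusted p = 2.51e-06), while its paralog *Sin3a* did not pass the threshold (0.12, edgeR adjusted p = 0.675, named after its values were seen). *Sap30l* and *Ing2* rose as well (1.93 and 1.01), and *Brms1l* and *Rbbp4* fell (-1.14 and -0.93).

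Of 25 listed regulators of MYC protein stability 24 were matched and tested, and 5 were lower and 5 higher, shares near those of all tested genes, with a median log2 fold change of 0.15. Among genes whose products stabilize MYC, *Cip2a*, an inhibitor of the phosphatase PP2A, fell from 49.3 ± 8.53 to 9.76 ± 2.73 CPM (SD over n = 3 tumors a group; log2 fold change -2.34, edgeR adjusted p = 7.53e-07), and *Aurka*, *Usp28* and *Pim3* fell with log2 fold changes of -1.20, -0.87 and -0.71. *Stub1*, *Gsk3a* and *Trpc4ap*, whose products promote MYC breakdown, rose by 0.61, 0.57 and 0.56 on the log2 scale, and the deubiquitinase gene *Usp7* rose by 0.50. The other 14 tested genes of the list did not pass the threshold, and a split by effect on MYC was not tested. The main ligase gene *Fbxw7*, named after its values were seen, averaged 19.1 CPM with vehicle against 25.2 CPM with RGS and did not pass the threshold (edgeR adjusted p = 0.197). The calls of *Gsk3a*, *Trpc4ap* and *Usp7* were lost with library size only (edgeR adjusted p = 0.0914, 0.0753 and 0.150). They were also lost without vehicle replicate 9 or RGS replicate 10 or 12 (*Gsk3a*), without vehicle replicate 9 or RGS replicate 11 (*Trpc4ap*) and without any 1 tumor but vehicle replicate 7 (*Usp7*). With these tumors left out, the log2 fold change of *Gsk3a* was between 0.45 and 0.53, of *Trpc4ap* 0.46 and 0.44, and of *Usp7* between 0.38 and 0.55. The number of higher genes was unsteady: 8, 3 and 1 without vehicle replicates 7, 8 and 9, 2 without each RGS tumor, and 1 with library size only. MYC protein was not measured here.

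Genes of cell division fell together with *Myc*. Of 19 tested genes 16 were lower and 0 higher, with a median log2 fold change of -1.34, and the summed level of the list was between 1368 and 1476 CPM with vehicle and between 629 and 703 CPM with RGS. *Bub1* fell most, from 50.1 ± 4.23 to 7.14 ± 0.703 CPM (SD over n = 3 tumors a group; log2 fold change -2.81, edgeR adjusted p = 1.82e-08), and *Ccnb1*, *Aurkb* and *Foxm1* had log2 fold changes of -1.96, -1.74 and -1.63. *Plk1*, which did not pass the threshold, is in this list and in that of MYC stability. *Mki67*, named after its values were seen, fell too (log2 fold change -1.45, edgeR adjusted p = 1.36e-05). For the protein, the study reports the opposite, more Ki67-positive cells by immunohistochemistry in YUMM3.3 tumors given RGS. Its flow cytometry found more proliferation of cytotoxic T cells and less of non-leukocyte cells. As read from the same heat map as for *Myc*, the list's *Ccna2*, *Ccnb1* and *Rrm2* are among the genes the study picked from these tumors as lower, so the count is not independent evidence of the direction. The list, *Myc* and *Mxd3* shared the difference between the groups. Within the groups the list and *Mxd3* differed in order. *Mxd3* was lowest in vehicle replicate 7 and RGS replicate 12, where the list sums were the highest of their groups (1476 and 703 CPM). The part of the list in the change of *Myc* and *Mxd3* was not tested.

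**Figure D4:**
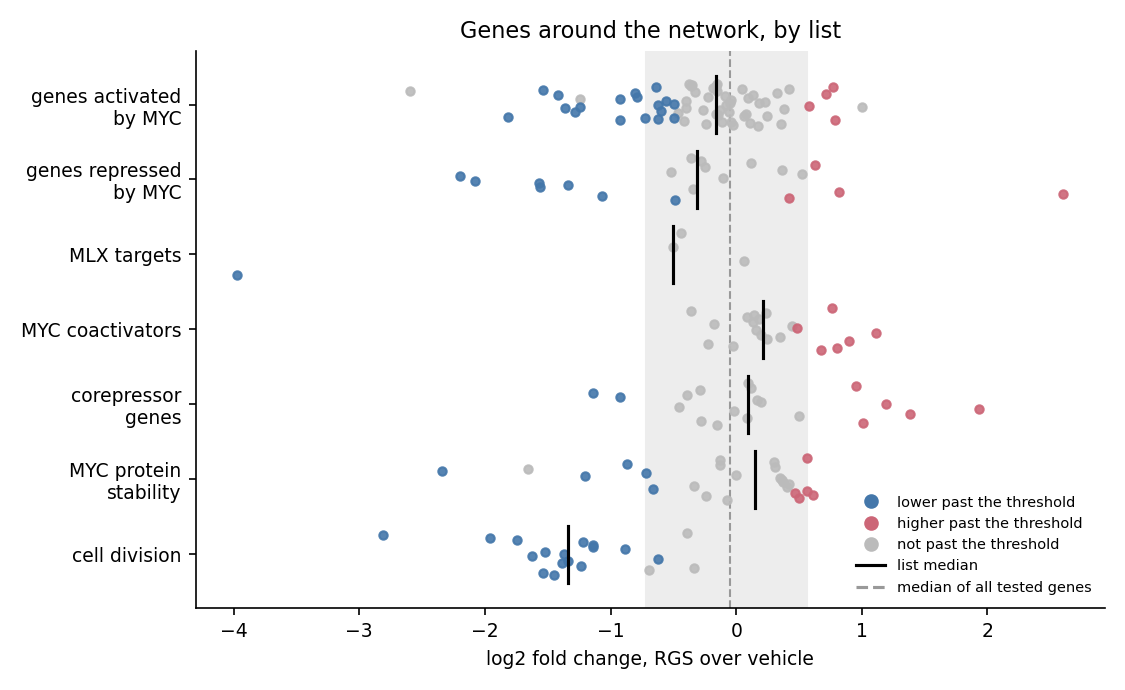
Log2 fold change (RGS over vehicle) of the tested genes of 7 lists around the network, 1 point per gene with an arbitrary vertical offset, in blue where lower and in red where higher past the threshold. Black lines are list medians, the dashed line is the median of all tested genes (-0.05), the grey band is their interquartile range, and *Arrdc4* is not drawn since its fold is only a bound, but it counts in the median of its list. The cell division list (median -1.34) lies left of the band, the genes activated by MYC (median -0.16) spread on both sides of 0, and *Txnip* stands at -3.97.

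The genes whose pattern over the 6 tumors was most like that of *Myc* were sought among 3770 tested genes of similar abundance, by the root mean square difference of centered log2 CPM. The 5 nearest were *Cyr61* (0.0670), *Asns* (0.102), *Smurf2* (0.107), *Sgpp1* (0.111) and *Esyt2* (0.117). *Cyr61* encodes a secreted matrix protein, *Asns* the asparagine synthetase and *Smurf2* a ubiquitin ligase. Since they were chosen by likeness to *Myc*, their direction and size were fixed by the choice, with log2 fold changes between -1.28 (*Asns*) and -1.002 (*Smurf2*).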

How the data were processed

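Whole-tumor RNA of 3 vehicle and 3 RGS tumors was sequenced as paired-end reads, and the authors deposited unnormalized read counts per gene, 1 column per tumor. The submitters' processing notes name cutadapt 1.18, FastQC 0.11.7, STAR 2.7.1a, featureCounts 1.6.4 and the build mm10. The gene coordinates are those of GRCm38. For 39178 of the 40013 genes also in GENCODE M21 they were identical, and strands and exons were taken from there. Counts were tested in R 4.3.3 with edgeR 4.0.16 (TMM factors, quasi-likelihood F test), with DESeq2 1.42.0 (the tool of the study) and limma 3.58.1 as alternatives, besides other scalings, filters and thresholds, thinning, a gene length offset, mitochondrial genes left out, and each tumor left out. Standard errors were derived from each log2 fold change and its F statistic. The procedure was also run on simulated data, and no result of that run is used here. Within a group, counts of library pairs differed by 18.5 or more times their sampling noise (reduced chi-square), and each tumor was kept as 1 replicate. The members and the gene lists, written from general knowledge, were chosen with earlier results of these data known. Named by rule were all members, 5 related genes, up to 4 called, non-overlapping genes of at least 1 CPM per direction of each list, the 5 genes most like *Myc*, marker genes and genes overlapping a member. Some genes that this rule names are left out of the text.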

Additional observations from a re-analysis of the deposited data

How the results depend on the processing

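The log2 fold changes of *Myc*, *Mlx* and *Mxd3* kept their direction and passed the threshold in all 16 alternative fits (from -1.30 to -1.07, -1.22 to -0.78 and -2.56 to -1.92). The call of *Mxi1* was lost with library size only (0.35, edgeR adjusted p = 0.113), which moved the calls over all genes from 2533 lower and 2503 higher to 3152 and 1870, and members higher from 2 to 1. With each tumor left out in turn, *Mxi1* was between 0.42 and 0.57, *Mxd4* between 0.55 and 0.85, and members higher between 1 and 2. At an adjusted p under 0.01 (fewer calls by construction) 1562 genes were lower and 1607 higher, 1 member was higher, and the lists gave 11 activated targets lower and 2 higher, 1 stability gene higher and 1 MLX target lower. With library size only, 5 corepressor genes were lower, 1 stability gene and 2 repressed targets higher, and 4 MLX targets lower. A gene length offset gave 2 related genes, 1 coactivator and 4 MLX targets lower, and edgeR's filterByExpr 1 MLX target lower. Leaving out single tumors gave 3 to 7 coactivators higher, 1 to 8 stability genes higher, 2 to 6 activated and 2 to 5 repressed targets higher, and 1 to 3 MLX targets lower with 0 to 1 higher. The main count of MLX targets lower was 2, and as it includes *Arrdc4* these counts are no support. The difference in the log2 ratio of activators to antagonists was -1.37 without division by length, where antagonists exceeded activators in every RGS tumor. Where not stated, the cause was not tested. No paired analysis was possible because the groups share no replicate numbers. Depth limits *Mycn* and *Arrdc4*, which were near the floor of 3 counts.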
